A study of Mus musculus with 4 samples.

Results

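The cells described here are G2/M tumour cells of 4 mouse medulloblastomas profiled by Drop-seq, a method that captures a single cell and a barcoded bead in a droplet and counts messenger RNA molecules by unique molecular identifiers (UMIs). A barcode was taken as a cell with at least 500 UMIs, at least 200 detected genes and at most 10% of UMIs from mitochondrially encoded genes. The members were chosen by measured counts: a barcode was a G2/M cell when Mki67, Top2a, Cenpf, Cenpe, Ube2c, Prc1, Tpx2, Hmmr and Aspm together had at least 4 UMIs. Of 2288 filtered cells among 6734 barcodes, 787 met this rule. They were set against 231 S-phase cells of the same tumours. These had at most 3 UMIs of those 9 genes and at least 3 UMIs summed over Hells, Clspn, Tyms, Lig1, Mcm3, Mcm6, Atad2 and Pcna. The G2/M class is named after its markers and is mixed. Of its 787 cells, 301 also had at least 3 UMIs of these S-phase genes.

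The mice were untreated, aged postnatal day 16 and labelled G-SmoAMPK. All 4 carried hGFAP-Cre and SmoM2, together with the floxed alleles Prkaa1fl/fl and Prkaa2fl/fl. SmoM2 is a constitutively active form of Smoothened that switches on Sonic hedgehog (SHH) signalling where Cre recombinase has acted, and Prkaa1 and Prkaa2 encode the alternative kinase subunits of AMPK, the AMP-activated energy sensor. The hGFAP promoter drives Cre in neural progenitors that give rise to neurons and glia, so recombination is not limited to granule neuron progenitors. The 4 tumours form 1 group, and a tumour genotype with intact AMPK genes is not analysed here. Every test between classes of cells below is therefore within the same tumours, and differences between tumours are given as description.

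Before a cell divides it replicates its DNA in S phase, passes through the G2 gap and segregates its chromosomes in mitosis. Cyclin B and its kinase CDK1 start mitosis, the spindle checkpoint holds the cell until every kinetochore is attached, and the anaphase-promoting complex with its activator CDC20 then destroys cyclin B and releases the sister chromatids. Transcripts of this machinery accumulate late in the cycle through the MuvB complex with MYBL2 and FOXM1, which acts at promoters that carry a cell cycle homology region (CHR), often beside CCAAT boxes bound by NF-Y. In SHH medulloblastoma the dividing cells resemble granule neuron progenitors of the developing cerebellum, whose proliferation depends on SHH.

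The libraries differed in ways that touch every value given per tumour. Over all barcodes, the mitochondrial part of the UMIs was 12.3% in tumour 1 and 15.2% in tumour 2 but 2.79% in tumour 3 and 2.43% in tumour 4. Over summed G2/M cells, the log2 levels of genes had a Pearson r of 0.85 within the pair of tumours 1 and 2, 0.90 within the pair of tumours 3 and 4 and 0.46 to 0.70 across the pairs. One barcode sequence was shared between 2 libraries, and none among the filtered cells. Prkaa1 had 0 to 4 UMIs and Prkaa2 1 to 7 UMIs in the G2/M cells of each tumour. These 3′-end counts need not lie in the deleted exons, so they do not check the deletion.

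The G2/M cells made up 31.6% of filtered cells in tumour 1 (117 of 370; exact Clopper-Pearson 95% interval 26.9 to 36.6), 43.0% in tumour 2 (125 of 291; 37.2 to 48.9), 28.0% in tumour 3 (157 of 561; 24.3 to 31.9) and 36.4% in tumour 4 (388 of 1066; 33.5 to 39.4). The mean was 34.7% ± 6.47 (SD, n = 4), and these intervals cover counting error only. S-phase cells made up 6.49%, 4.81%, 10.5% and 12.6%, so that there were 4.88, 8.93, 2.66 and 2.90 G2/M cells per S-phase cell in tumours 1 to 4. A cell that met both limits was counted as G2/M, which holds for 301 cells against 231 in the S-phase class. These shares and ratios follow from that order and do not measure how many cells were in S phase. Tumour 2 had the most G2/M cells for its size and only 14 S-phase cells. The rule asks for a fixed number of UMIs, which a deeper cell reaches more easily. After each cell was thinned to 500 UMIs the share was 29.2%, 36.8%, 18.0% and 22.1%, again highest in tumour 2. The median G2/M cell had 957, 843, 993 and 1351 UMIs in tumours 1 to 4, against 744, 760, 716 and 799 in cells of neither class.

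**Figure D1:**
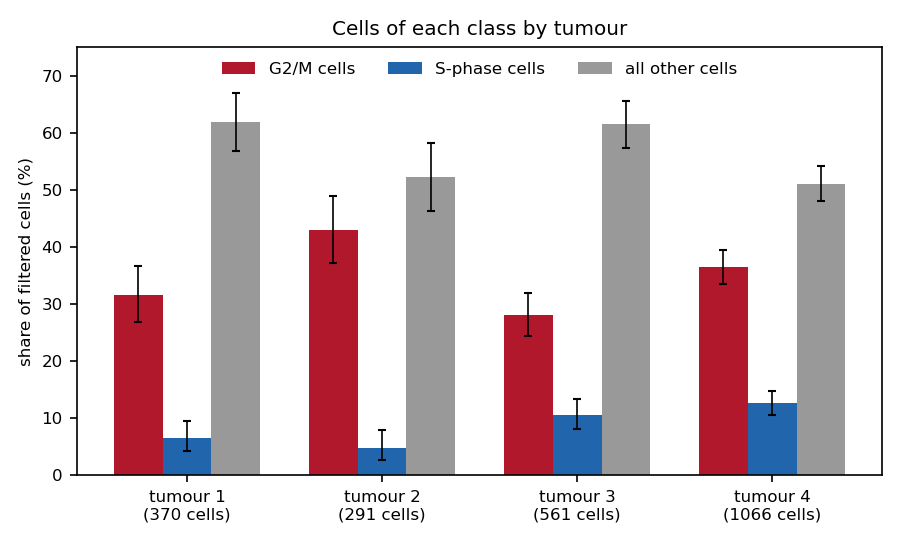
Share of filtered cells (vertical axis, %) in the G2/M class, the S-phase class and neither, for each tumour (horizontal axis, with its number of filtered cells). Bars start at 0, error bars are exact 95% intervals of counting error, and the G2/M share is highest in tumour 2 at 43.0%.

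The 9 genes that chose the cells are given as a description. Mki67, the nuclear proliferation antigen that coats mitotic chromosomes, was at 6977, 5117, 2191 and 2184 CPM (UMIs of a gene relative to all UMIs of the sum, on the usual CPM scale) of the summed G2/M cells of tumours 1 to 4. The centromere proteins Cenpf and Cenpe ranged from 1462 to 3467 CPM and from 821 to 2490 CPM, again with tumours 1 and 2 above tumours 3 and 4. Ube2c, the ubiquitin-conjugating enzyme of the anaphase-promoting complex, went the other way, at 309, 329, 679 and 710 CPM. Hmmr, a spindle-associated hyaluronan receptor, was at 478, 559, 467 and 468 CPM. Prc1, which bundles the microtubules of the central spindle, and Tpx2, the activator of Aurora A, were at 794 to 970 CPM and 663 to 819 CPM. Top2a, the topoisomerase that untangles replicated chromatids, had a UMI in 672 of the 787 cells, Mki67 in 670 and Hmmr in 283.

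The median G2/M cell had 12 UMIs of the 9 markers, with a range of 4 to 99. Just inside the threshold, 83 cells had 4 marker UMIs, and just outside it 122 cells had 3. The 23 genes of cyclin B, CDK1 and anaphase-promoting complex control, which the rule did not use, summed to 1028 CPM in the cells with 3 marker UMIs and to 1355 CPM in those with 4. That step came from tumour 4 (1142 to 1732 CPM), while the sum was lower with 4 marker UMIs in tumour 1 (585 to 439 CPM), tumour 2 (943 to 499 CPM) and tumour 3 (1334 to 1251 CPM). Among G2/M cells the same sum was 1777 CPM with 4 or 5 marker UMIs, 2330 with 6 to 9, 3090 with 10 to 19 and 3922 with 20 or more. The median depth of these bins was 898, 851, 1164 and 1729.5 UMIs. The 50 genes of the DNA replication list summed to 7147, 7187, 6665 and 5787 CPM over the same bins, a decline seen in tumours 3 and 4 (6948 to 4768 CPM and 7213 to 5318 CPM from the first bin to the last). In tumour 1 the sum was 7686, 7291, 9462 and 6558 CPM and in tumour 2 it was 6782, 8191, 7216 and 7151 CPM, with no such order. Pooled over tumours, members close to the threshold held less of the mitotic entry transcripts than those with many marker UMIs. These bins share libraries and differ in depth.

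Summed counts of G2/M and S-phase cells were compared per tumour with edgeR's quasi-likelihood test and the tumour as a block. The sums held 142180, 130541, 183966 and 589798 UMIs for G2/M cells and 26936, 11226, 66930 and 158753 for S-phase cells. In tumour 2 a single UMI of the S-phase sum equals 89.1 CPM, which limits what can be said of low genes there. Outside the 17 genes of the rule 3216 genes were tested. Of these, 129 were higher in G2/M cells (4.01% of those tested) and 19 were lower (0.591%) at an adjusted p under 0.05, which is 4.60% in either direction, with a median log2 fold change of 0.03 over all tested genes. A gene near 0 in S-phase cells could pass the filter on low counts through its G2/M sums. The counts over gene groups that follow therefore describe the tested members. For single genes with few S-phase UMIs, p-values and a lack of overlap carry the same limit and are descriptions. Counts over groups are to be read beside the 4.01% higher and 0.591% lower of all tested genes. In a short list 0 or 1 call says little. Without tumour 4, which holds the most cells, 56 were higher and 4 lower. Without tumour 3 the lower genes numbered 9, and tumours 1 and 2 alone gave 27 higher and 3 lower. With no tumour block 40 were higher and 0 lower, and with DESeq2 73 and 6.

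Control of mitotic entry and exit differed between the classes. Of 23 listed genes of cyclin B, CDK1 and the anaphase-promoting complex, 12 were tested, 9 were higher in G2/M cells and 0 were lower. Their median log2 fold change was 2.78. Without tumour 4 the count was 4 of 7 tested, and with tumours 1 and 2 alone it was 2 of 5. Ccnb2, a B-type cyclin, was at 218, 192, 185 and 212 CPM in the G2/M cells of tumours 1 to 4 and at 0, 0, 29.9 and 0 CPM in S-phase cells, the last on 2 UMIs. Every tumour's G2/M level was above every S-phase level, and the pooled ratio was 27.1 (95% counting interval 7.41 to 225). Ccnb1, the partner of CDK1 at mitotic entry, was at 91.4, 99.6, 299 and 275 CPM against 37.1, 89.1, 44.8 and 18.9 CPM. Its G2/M levels in tumours 1 and 2 lay close to the highest S-phase value, which is 1 UMI in tumour 2. The fitted log2 difference was 3.04 ± 0.45 (SE; edgeR adjusted p = 1.16e-09).

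Cdk1, the mitotic kinase itself, was at 211, 237, 326 and 353 CPM in G2/M cells and at 0, 0, 29.9 and 50.4 CPM in S-phase cells, a log2 difference of 3.17 ± 0.41 (SE; edgeR adjusted p = 1.33e-12). Cdc20, which activates the anaphase-promoting complex, was at 422, 306, 114 and 166 CPM against 74.3, 0, 29.9 and 12.6 CPM. Its G2/M levels were higher in tumours 1 and 2, where Ccnb1 was lower. The mitotic kinases Plk1 (141, 99.6, 114 and 192 CPM, with 4 S-phase UMIs in all) and Aurka (148, 76.6, 158 and 180 CPM, with 5) were higher in every tumour. The members of the group that missed the threshold were Cks1b, Fbxo5 and Anapc11. Fbxo5, an inhibitor of the anaphase-promoting complex that already accumulates in S phase, was at 202 CPM on average in G2/M cells and 156 CPM in S-phase cells.

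The bases before the annotated start are printed for 4 of these genes and for the spindle motor gene Kif11, to show where the CHR letters and CCAAT boxes lie in genes called higher. They are from RefSeq on GRCm38.p6, written 5′ to 3′ on the strand of the gene and ending 1 base before the start. Capitals mark the CHR letters TTTGAA and the CCAAT box letters CCAAT, on either strand.
Ccnb2 (chr9:70421555-70421654, minus strand): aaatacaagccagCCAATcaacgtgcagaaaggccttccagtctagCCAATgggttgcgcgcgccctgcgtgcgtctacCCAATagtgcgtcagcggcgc
Ccnb1 (chr13:100786487-100786596, minus strand): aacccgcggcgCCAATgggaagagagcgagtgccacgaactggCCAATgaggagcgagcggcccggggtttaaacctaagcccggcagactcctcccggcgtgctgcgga
Cdk1 (chr10:69352913-69353012, minus strand): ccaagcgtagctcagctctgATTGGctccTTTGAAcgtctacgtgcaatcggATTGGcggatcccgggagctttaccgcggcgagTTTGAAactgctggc
Cdc20 (chr4:118437344-118437443, minus strand): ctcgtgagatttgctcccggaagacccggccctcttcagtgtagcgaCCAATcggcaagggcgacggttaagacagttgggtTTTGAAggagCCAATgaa
Kif11 (chr19:37376282-37376381, plus strand): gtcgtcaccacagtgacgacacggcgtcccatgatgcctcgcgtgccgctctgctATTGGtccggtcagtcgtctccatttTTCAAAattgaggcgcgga
In Ccnb2 the CCAAT boxes begin 87, 54 and 21 bases before the start, and CHR letters lie 167 bases before the start and 5 bases after it, both outside the printed stretch. In Cdk1 the CHR letters begin 71 and 15 bases before the start and the reversed CCAAT boxes 80 and 48 bases before it. Cdc20 has the CHR letters 18 bases before the start between CCAAT boxes at 53 and 8, and Kif11 has reversed CHR letters at 19 and a reversed CCAAT box at 45. Ccnb1 has CCAAT boxes at 99 and 67 and no CHR letters in the printed stretch or elsewhere from 250 bases before to 50 after the start.

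Promoters were counted over the whole result with the window from 250 bases before to 50 after the first listed start. Of the 129 genes higher in G2/M cells, 100 matched a RefSeq promoter and 51 of them held TTTGAA on either strand, against 13.3% of the 2547 tested genes with a promoter and 18.1% of all 27025 genes of the table. The CCAAT box was in 65.0% of the genes higher in G2/M cells, 41.2% of the tested genes and 37.9% of all genes. Both letters together were in 42.0% against 6.1% of the tested genes. Among the 15 genes lower in G2/M cells that had a promoter, 4 held TTTGAA and 3 a CCAAT box. The CHR matches lay near the start. In a window of 60 bases before to 40 after it, set after the positions had been seen, 38.0% of the genes higher in G2/M cells had a match, against 4.5% of the tested genes. Counted in the 250 bases before the start alone, the CHR share of the genes higher in G2/M cells was 28.0% (28 of 100) against 281 of the 2547 tested genes. Pairs of CCAAT boxes on the same strand 31 to 34 bases apart, a spacing chosen after the printed promoters were seen, were in 13.0% against 2.6%. A match is a run of letters and not a bound site.

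**Figure D2:**
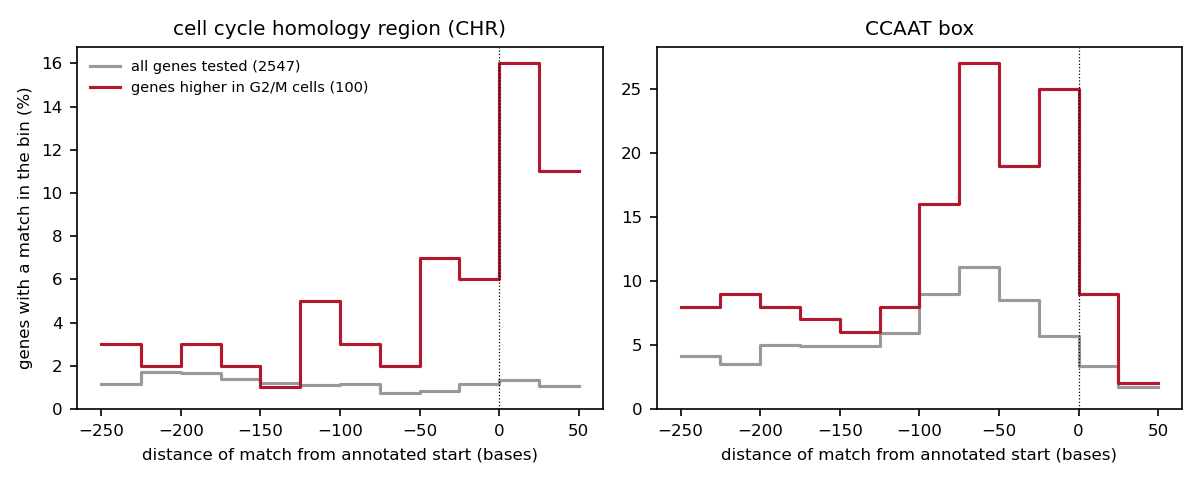
Share of genes with a match of the CHR letters (left) or the CCAAT box (right) in each bin of 25 bases (vertical axis, %) against the distance from the annotated start (horizontal axis, bases), for the 100 genes higher in G2/M cells and the 2547 tested genes with a promoter. Matches of the CHR letters in the first group are most frequent in the 50 bases after the start, and those of the CCAAT box in the 100 bases before it.

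Kinetochore and spindle checkpoint genes formed the second group. Of 35 listed genes 23 were tested, 16 were higher in G2/M cells and 0 were lower, with a median log2 fold change of 2.31. Cenpa, the histone H3 variant that marks centromeres, was at 162, 253, 375 and 383 CPM in G2/M cells and 0, 89.1, 29.9 and 12.6 CPM in S-phase cells. The groups did not overlap, but Cenpa had 5 S-phase UMIs in all and was tested through its G2/M counts. Its log2 difference was 4.20 ± 0.47 (SE; edgeR adjusted p = 1.41e-16). Nuf2, a subunit of the NDC80 complex that grips microtubules, was at 401, 414, 245 and 358 CPM against 0, 89.1, 0 and 44.1 CPM. Ndc80 itself was at 155, 169, 87.0 and 205 CPM, with 2 UMIs in all S-phase cells. Bub1, a checkpoint kinase, was at 246, 283, 190 and 220 CPM against 0, 0, 29.9 and 18.9 CPM. Sgol2, which protects centromeric cohesin, was at 450, 552, 321 and 285 CPM against 37.1, 89.1, 89.6 and 12.6 CPM. Casc5, the kinetochore scaffold also called Knl1, was higher by 3.03 ± 0.28 (SE) on the log2 scale. The tested members that missed the threshold were Cenph, Cenpm, Cenpq, Cenpw, Zwint, Hjurp and Mis12.

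Motor proteins and microtubule-associated proteins of the spindle formed the next group. Of 26 listed genes 20 were tested, 18 were higher in G2/M cells and 0 were lower, with a median log2 fold change of 2.55. Kif11, the motor that pushes spindle poles apart, was at 717, 720, 419 and 385 CPM in G2/M cells and 37.1, 89.1, 29.9 and 25.2 CPM in S-phase cells. All G2/M levels were above all S-phase levels, and the log2 difference was 3.92 ± 0.39 (SE; edgeR adjusted p = 2.17e-21). Nusap1, which bundles spindle microtubules near chromatin, was at 450, 460, 799 and 809 CPM against 149, 89.1, 89.6 and 81.9 CPM. It had 24 S-phase UMIs, and its log2 difference was 3.06 ± 0.29 (SE; edgeR adjusted p = 8.90e-23). Kif4, the chromokinesin that organizes the central spindle, was at 317, 283, 234 and 268 CPM against 0, 89.1, 44.8 and 18.9 CPM. Tacc3 and Ckap2l, which stabilize spindle microtubules, varied little between tumours, at 370 to 457 CPM and 338 to 489 CPM. Numa1 and Haus8 missed the threshold. With tumours 1 and 2 alone, 6 genes of the list were called.

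Genes of cytokinesis and the chromosomal passenger complex followed. Of 16 listed genes 14 were tested, 11 were higher in G2/M cells and 0 were lower, with a median log2 fold change of 2.67. Kif23, a motor of the centralspindlin complex at the cleavage site, was at 549, 406, 228 and 276 CPM in G2/M cells and 37.1, 0, 29.9 and 12.6 CPM in S-phase cells. It had 5 S-phase UMIs in all and was tested through its G2/M counts, with a log2 difference of 4.00 ± 0.47 (SE; edgeR adjusted p = 2.67e-15). The 4 subunits of the passenger complex were all called. Incenp, its scaffold, was at 1266, 1004, 375 and 607 CPM against 111, 267, 44.8 and 88.2 CPM. Birc5 (survivin) was at 120, 146, 272 and 361 CPM and Aurkb, the kinase, at 98.5, 76.6, 120 and 175 CPM, while Cdca8 was called in the same direction. The septins Sept7 and Sept11 and the nuclear pore factor Ahctf1, which also act outside division, missed the threshold.

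**Figure D3:**
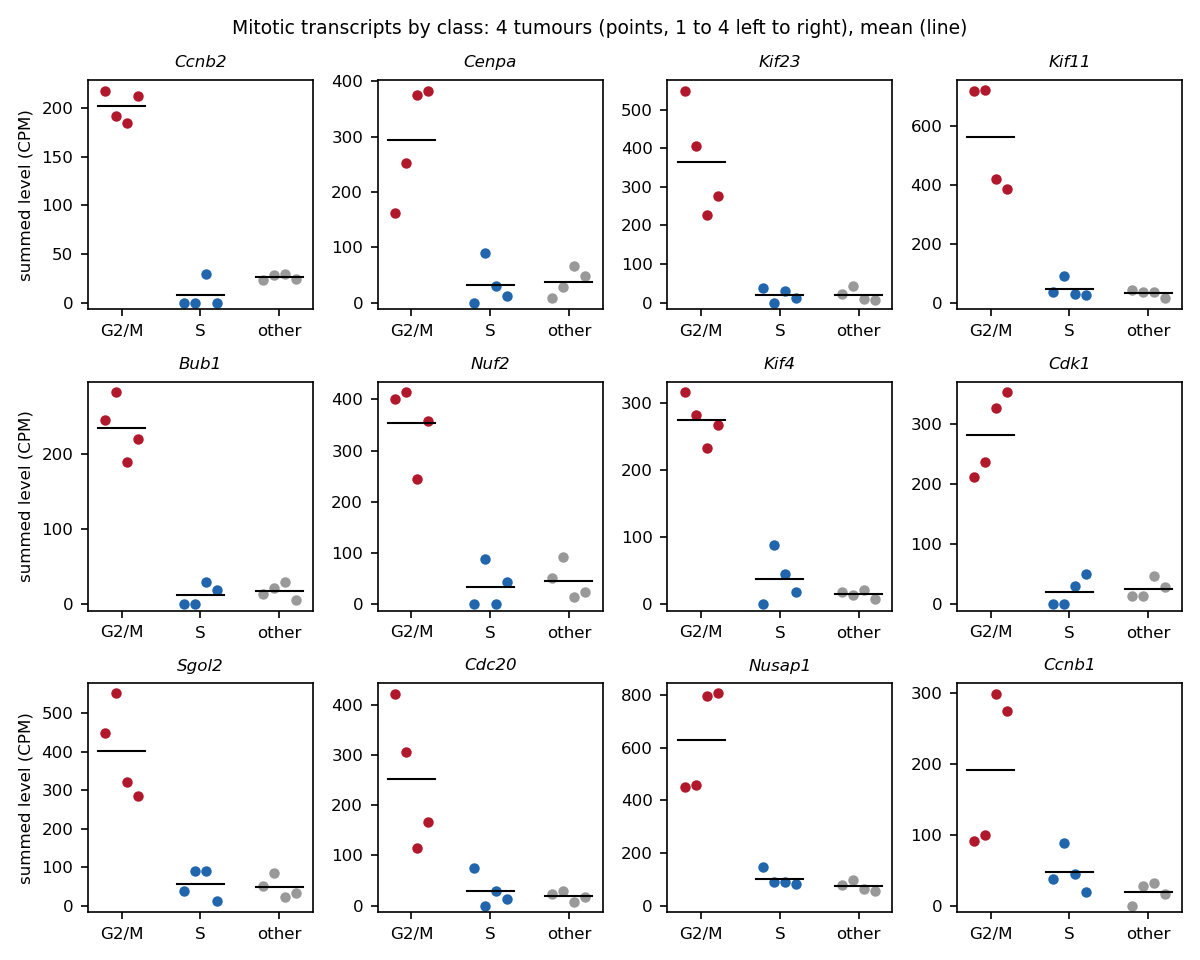
Summed level (vertical axis, CPM) of 12 mitotic genes in the G2/M, S-phase and remaining cells of each tumour. Points are tumours 1 to 4 from left to right within a class and lines are means of 4 tumours. Every G2/M point lies above every S-phase point in these 12 genes, which were picked as large changes of the same sign in 4 of 4 tumours among the 4.01% of tested genes called higher.

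Chromosome condensation and cohesion genes were split. Of 19 listed genes 18 were tested and 6 were higher in G2/M cells, with 0 lower and a median log2 fold change of 0.76. Smc4 and Smc2, the ATPases that both condensins share, were at 1695, 1609, 2544 and 2248 CPM and at 2040, 1846, 1397 and 1109 CPM in G2/M cells. In S-phase cells they were at 520, 980, 852 and 838 CPM and at 780, 713, 732 and 567 CPM. The groups did not overlap for either gene, and the log2 differences were 1.53 ± 0.16 and 1.18 ± 0.16 (SE; edgeR adjusted p = 1.43e-20 and 3.34e-11). Ncapg of condensin I was higher by 2.65 ± 0.35 (SE), and Ncapd2 of the same complex was also called. Ncaph of condensin I and Ncapd3, Ncapg2 and Ncaph2 of condensin II missed the threshold. Of the cohesin ring, Rad21 was higher by 1.05 ± 0.24 (SE), and Smc1a and Smc3 did not pass. Esco2, which acetylates cohesin to fix sister cohesion during replication, was higher by 1.75 ± 0.30 (SE).

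Histone and high mobility group genes moved by smaller amounts and depended on the library. Of 21 listed genes 17 were tested, 9 were higher in G2/M cells and 0 were lower, with a median log2 fold change of 0.65. Hmgb2, a DNA-bending chromatin protein, was at 506, 521, 2033 and 2226 CPM in G2/M cells and 223, 624, 687 and 624 CPM in S-phase cells. The order was reversed in tumour 2, and the fitted log2 difference was 1.64 ± 0.18 (SE; edgeR adjusted p = 1.52e-17). Hist1h1b, a linker histone whose transcript is replication-dependent, was at 317, 406, 1576 and 944 CPM against 74.3, 89.1, 388 and 214 CPM, higher in 4 of 4 tumours. H2afx, the variant phosphorylated at DNA breaks, was at 77.4, 169, 342 and 414 CPM against 0, 0, 105 and 75.6 CPM. With tumours 1 and 2 alone 0 of these genes were called, and without the tumour block 0. Of the nuclear envelope genes, Lmnb1 and Tmpo were higher by 1.09 ± 0.22 and 1.08 ± 0.23 (SE) on the log2 scale; both were chosen after their values were seen.

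Tubulins and stathmin formed a further group. Of 12 listed genes 10 were tested and 2 were higher (4.01% of all tested genes were higher), with a median log2 fold change of 0.28. Tubb4b, a beta tubulin, was at 98.5, 115, 174 and 287 CPM in G2/M cells against 0, 0, 29.9 and 107 CPM. Stmn1, which destabilizes microtubules, was at 155, 230, 1946 and 1779 CPM against 260, 89.1, 1180 and 1178 CPM. It was below its S-phase level in tumour 1, and with tumours 1 and 2 alone its difference was -0.04 on the log2 scale. Among 22 listed regulators of the MuvB, FOXM1 and E2F system, 5 passed the filter and 0 were called by edgeR at an adjusted p under 0.05, with 1 at an unadjusted p under 0.05. That gene was E2f1, the activator of S-phase genes, at 63.3, 46.0, 32.6 and 37.3 CPM in G2/M cells and 111, 89.1, 105 and 81.9 CPM in S-phase cells (edgeR adjusted p = 0.15).

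**Figure D4:**
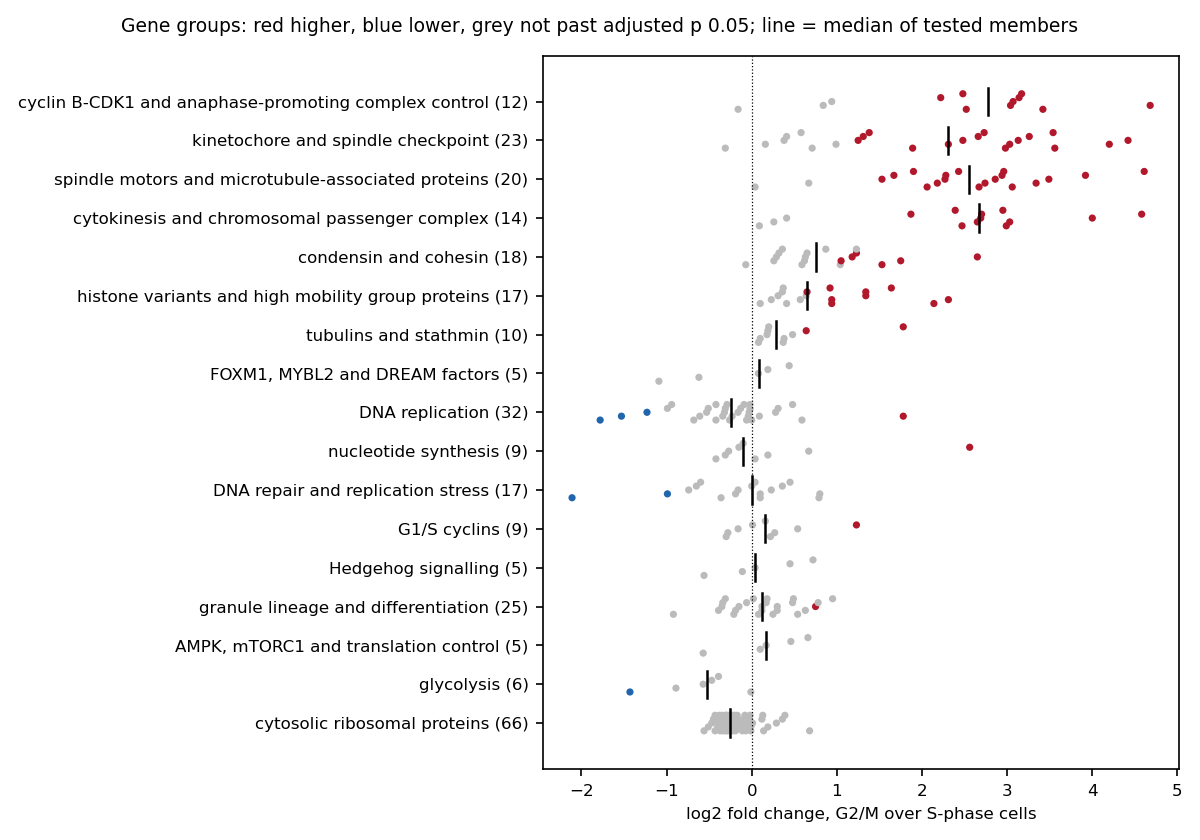
Log2 fold change of G2/M over S-phase cells (horizontal axis) for tested genes of each group (vertical axis, number tested in brackets). Points are genes, coloured by the call at an adjusted p of 0.05, and vertical lines are group medians, which are above 2 for the first 4 groups and near 0 for most of the others.

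Of 50 listed DNA replication genes 32 were tested, with a median log2 fold change of -0.24. In G2/M cells 3 were lower (Cdt1, Mcm2 and Cdc6), against 0.591% of all tested genes. The 1 member that was higher says little about the list, since 4.01% of all tested genes were higher. The list summed to 7315, 7308, 6153 and 6209 CPM in the G2/M cells of tumours 1 to 4. In S-phase cells it summed to 7945, 8641, 7784 and 7660 CPM. Cdt1, which loads the MCM helicase and is destroyed once S phase starts, was at 42.2, 46.0, 48.9 and 44.1 CPM in G2/M cells and 74.3, 267, 179 and 170 CPM in S-phase cells. The groups did not overlap, and the log2 difference was -1.78 ± 0.37 (SE; edgeR adjusted p = 5.02e-05). Mcm2, a helicase subunit, was at 77.4, 107, 65.2 and 74.6 CPM against 297, 267, 209 and 145 CPM, and Cdc6, the other loader, at 14.1, 46.0, 27.2 and 49.2 CPM against 111, 89.1, 120 and 126 CPM. The related helicase genes Mcm5 and Mcm4 differed by -0.99 ± 0.36 and -0.94 ± 0.32 (SE) and missed the threshold (edgeR adjusted p = 0.103 and 0.063). Dbf4, the activating subunit of the kinase that fires origins, was the member that was higher, by 1.78 ± 0.43 (SE).

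Of 26 listed repair genes 17 were tested, and 2 were lower in G2/M cells, against 0.591% of all tested genes. Ung, which removes uracil from DNA, was at 0, 30.6, 32.6 and 39.0 CPM against 74.3, 89.1, 209 and 145 CPM. Cdca7, which recruits the remodeller HELLS to DNA, was at 190, 199, 152 and 188 CPM against 408, 534, 299 and 397 CPM, with no overlap and a log2 difference of -0.99 ± 0.26 (SE; edgeR adjusted p = 0.00319). Of 15 nucleotide synthesis genes 9 were tested, and Tk1, a thymidine kinase, was higher by 2.56 ± 0.61 (SE) on 4 S-phase UMIs. With 4.01% of all tested genes higher, 1 call says little about so short a list. Ribonucleotide reductase subunit Rrm2 was at 183, 184, 386 and 393 CPM against 74.3, 89.1, 344 and 227 CPM and did not pass (edgeR adjusted p = 0.173). Gnl3 and Gtpbp4, nucleolar GTPases of ribosome assembly, were lower by 0.90 and 0.85 on the log2 scale (edgeR adjusted p = 0.018 and 0.0442). They were lower in 4 of 4 tumours, which was required of the named genes.

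Some of the genes lower in G2/M cells rested on a few S-phase barcodes. Sparc, an extracellular matrix glycoprotein of endothelial and stromal cells, had the largest difference, -3.22 ± 0.34 (SE), at 84.4, 130, 10.9 and 8.48 CPM in G2/M cells and 1299, 267, 89.6 and 195 CPM in S-phase cells. One barcode held 42.7% of its 75 S-phase UMIs. The endothelial and mural marker lists summed to 1002 and 2376 CPM in the S-phase cells of tumour 1, against 14.1 and 197 CPM in its G2/M cells, and the microglial list to 1247 CPM in the S-phase cells of tumour 4 against 18.7 CPM. Once cells with at least 2 markers of another type were left out, Sparc no longer passed the filter on low counts, and Ctsb, a lysosomal protease called lower at -1.44, was at 0.36. Nfkbia, an inhibitor of NF-kappa B, moved from -1.09 to -0.50 (edgeR adjusted p = 0.658). Tfrc, the transferrin receptor, was lower by 1.13 on the log2 scale with G2/M levels of 148, 314, 16.3 and 35.6 CPM, and it missed the threshold without those cells (edgeR adjusted p = 0.165). Hspa8, a chaperone, kept its call at -0.54.

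In the other direction, Smek2 and Eftud2 were called higher through a single barcode each. One cell of tumour 1 held 421 of the 621 Smek2 UMIs of all G2/M cells (67.8%), and 1 cell held 173 of the 276 Eftud2 UMIs (62.7%). When each gene was counted once per cell, their differences were 0.06 and 0.63 and neither passed.

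Markers of other cell types were present in the G2/M sums. The 10 neuron markers, which include Neurod1 of the granule lineage, summed to 4016, 4282, 1625 and 1602 CPM over tumours 1 to 4, against 3527, 3830, 1748 and 1600 CPM in S-phase cells. The 7 mural or fibroblast markers summed to 197, 38.3, 5.44 and 15.3 CPM in G2/M cells. The list sums over tumours 1 to 4 were 49.2, 161, 27.2 and 18.7 CPM for 10 microglial genes and 14.1, 153, 5.44 and 8.48 CPM for 7 endothelial genes. They were 134, 138, 250 and 348 CPM for 7 astrocyte or radial glia genes and 394, 605, 266 and 451 CPM for 9 genes of the oligodendrocyte lineage. The granule lineage was present. Zic1, a transcription factor of cerebellar granule cells, was at 942, 988, 777 and 888 CPM in G2/M cells and 743, 1247, 792 and 813 CPM in S-phase cells, and Barhl1, another granule lineage factor, at 331, 337, 484 and 398 CPM. Scrublet marked 6 of the 787 G2/M cells as doublets, and 46 cells had at least 2 markers of another type.

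Of 13 listed genes of the SHH pathway 5 were tested and 0 were called in either direction by edgeR, with 0 at an unadjusted p under 0.05. With 4.60% of all tested genes called, so short a list says little about the pathway. Gli1, a transcription factor and target of the pathway, was at 450, 199, 54.4 and 84.8 CPM in G2/M cells and 260, 178, 74.7 and 69.3 CPM in S-phase cells, and the 95% interval of the log2 difference ran from -0.26 to 1.16. Sfrp1, a secreted WNT antagonist and SHH target, was at 1414, 2007, 1343 and 1650 CPM against 1745, 2227, 1883 and 1688 CPM, with an interval of -0.38 to 0.16. Mycn, the driver of progenitor growth downstream of SHH, was at 295, 291, 397 and 407 CPM against 186, 0, 314 and 472 CPM. Ccnd1, the G1 cyclin of these progenitors, was at 387, 245, 451 and 437 CPM against 408, 356, 583 and 586 CPM, lower in each tumour but not past the threshold (edgeR adjusted p = 0.684).

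Of the 17 genes of G1/S control, 9 were tested and 1 was called, where 4.01% of all tested genes were higher. This was Cdkn1b, which encodes the CDK inhibitor p27, higher in G2/M cells. It was at 302, 345, 533 and 573 CPM against 37.1, 267, 194 and 296 CPM, with no overlap and a log2 difference of 1.23 ± 0.25 (SE; edgeR adjusted p = 5.12e-05). The level in cells of neither class was 536 CPM on average. Neurod1, a proneural factor of differentiating granule neurons, was the granule lineage gene called of 25 tested, a share close to the 4.01% of all tested genes that were higher. It was at 717, 1195, 473 and 512 CPM in G2/M cells, 297, 980, 239 and 391 CPM in S-phase cells and 2379 CPM on average in the remaining cells. The difference was 0.75 ± 0.21 (SE; edgeR adjusted p = 0.00867), and it missed the threshold without tumour 1, 3 or 4. Of the 24 AMPK, mTORC1 and translation control genes 5 passed the filter, and 0 were called, with 0 at an unadjusted p under 0.05. With 4.60% of all tested genes called, so short a list says little about these pathways. Stk11, the kinase LKB1 upstream of AMPK, was at 127, 107, 174 and 195 CPM against 37.1, 0, 134 and 139 CPM (edgeR adjusted p = 0.41). Of 19 glycolysis genes 6 were tested and 1 was lower, against 0.591% of all tested genes. This was Aldoa, at 7.03, 76.6, 97.8 and 151 CPM against 37.1, 0, 374 and 403 CPM. It was lower in tumours 1, 3 and 4 but not in tumour 2, with 1 UMI in each class of tumour 1.

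Cytosolic ribosomal proteins took a smaller share of UMIs in the G2/M cells of every tumour. The share was 1.89%, 2.24%, 5.09% and 5.57% in G2/M cells and 2.74%, 3.14%, 6.34% and 6.75% in S-phase cells of tumours 1 to 4, a mean difference of -1.04 percentage points ± 0.199 (SD, n = 4). The exact sign-flip permutation test over 4 tumours gave p = 0.125 (two-sided), which is the smallest it allows, and an adjusted p of 1 over 10 measures. By gene, 66 of 82 were tested, 0 were called by edgeR and 11 had an unadjusted p under 0.05, with a median log2 fold change of -0.26. Median UMIs, median genes and the mitochondrial share did not move one way in all tumours. Mitochondrial UMIs were 7.01%, 7.27%, 2.44% and 1.88% in G2/M cells and 6.65%, 7.32%, 2.92% and 1.97% in S-phase cells.

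The G2/M cells were also described by their UMIs of S-phase markers, a count that depends on the depth of a cell as well as on its transcripts, so that a count of 0 does not show that a cell lacks them. Of the 787 cells, 194 (24.7%) had 0 UMIs of the 8 S-phase markers, 292 (37.1%) had 1 or 2 and 301 (38.2%) had 3 or more. The last share was 40.2%, 36.8%, 32.5% and 40.5% in tumours 1 to 4, with a mean of 37.5% ± 3.73 (SD, n = 4). Their 8 S-phase markers summed to 2476, 2321, 1816 and 1952 CPM over all G2/M cells. They summed to 4604, 5434, 4393 and 4006 CPM in S-phase cells and 390 to 498 CPM in the remaining cells, levels that the rule itself sets apart. The cells with 3 or more S-phase UMIs were deeper, with a median of 1432 UMIs against 881.5 in those with 0. Their 9 G2/M markers, which chose the cells, summed to 16057, 13466, 8585 and 8835 CPM in tumours 1 to 4. In the cells with 0 these markers summed to 20607, 19176, 12075 and 12826 CPM. The thinned counts given with the next results keep groups set before thinning, so they cannot show what depth did to the choice of cells. The part of depth in those results was not tested.

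Summed per tumour, the cells with 3 or more S-phase UMIs were compared with those with 0 by the same edgeR test. Of 1374 genes tested outside the rule genes, 28 were higher in the cells with S-phase transcripts (2.04%) and 23 were lower (1.67%), which is 3.71% in either direction, with 182 at an unadjusted p under 0.05 and a median log2 fold change of 0.01. Without tumour 4 the counts were 2 and 3, without tumour 2 they were 11 and 7, without tumour 3 they were 18 and 14, without the tumour block 0 and 0, and with cells thinned to 500 UMIs 6 and 4.

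Of the 8 DNA replication genes tested, 4 were higher in the G2/M cells that carried S-phase markers (Prim1, Chaf1a, Nasp and Dnmt1) and 0 were lower, with a median log2 fold change of 0.94. Of 5 nucleotide synthesis genes tested 2 were higher (Rrm2 and Dut), and of 8 repair genes 1 was higher, where 2.04% of all tested genes were higher. Rrm2, the regulated subunit of ribonucleotide reductase, was at 292, 244, 651 and 535 CPM in them and at 40.7, 112, 131 and 230 CPM in cells without S-phase markers. Every value of the first group was above every value of the second, and the log2 difference was 1.59 ± 0.27 (SE; edgeR adjusted p = 5.11e-05). Dnmt1, which copies DNA methylation onto new strands, was at 473, 413, 624 and 440 CPM against 163, 335, 196 and 153 CPM. Chaf1a, the chromatin assembly factor at the fork, was at 167, 281, 231 and 220 CPM against 81.4, 0, 43.5 and 115 CPM. Hist1h1b was at 404, 450, 2346 and 1212 CPM against 81.4, 372, 761 and 576 CPM, higher in each tumour with groups that overlap between tumours. Dut and Prim1, a nucleotide-pool enzyme and the primase subunit, were higher by 1.23 ± 0.29 and 1.07 ± 0.28 (SE). The remaining named genes of this direction were Ybx3, Senp1, Esco2, Atad5, Rad51ap1 and Hist1h1e. The cohesin ATPases Smc1a and Smc3, which were not called against S-phase cells, were higher here by 0.74 ± 0.15 and 0.63 ± 0.16 (SE).

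Of the 8 tested genes of cyclin B, CDK1 and the anaphase-promoting complex, 4 were lower in the cells with S-phase markers (Ccna2, Ccnb1, Ccnb2 and Cdc20), with a median log2 fold change of -0.79. In the other mitotic groups 2 of 15 spindle genes (median -0.47), 1 of 16 kinetochore genes (median -0.03) and 1 of 10 cytokinesis genes (median -0.28) were lower, with 0 higher in each. Over all tested genes 1.67% were lower, and the groups were not tested against each other. Cdc20 was at 570, 559, 218 and 336 CPM in them and at 292, 244, 0 and 91.4 CPM in cells with S-phase markers, a log2 difference of -1.61 ± 0.30 (SE; edgeR adjusted p = 2.30e-04). The order held in each tumour, which was required of the named genes. Arl6ip1, a shaper of the endoplasmic reticulum, was at 1100, 2048, 1915 and 1496 CPM against 557, 900, 380 and 718 CPM, with no overlap and a log2 difference of -1.28 ± 0.14 (SE; edgeR adjusted p = 2.01e-09). Ccnb2 was at 326, 335, 239 and 307 CPM against 139, 93.8, 122 and 149 CPM, and Ccnb1 at 163, 149, 435 and 470 CPM against 41.7, 131, 149 and 217 CPM. Dlgap5 and Knstrn, spindle and kinetochore proteins, differed in the same direction in 4 of 4 tumours, again as required of named genes. Cenpa was lower in the cells with S-phase markers in 3 of 4 tumours, with a log2 difference of -1.32 (edgeR adjusted p = 2.30e-04). Hn1, Paip2, Atxn7l3b, Ddah2 and Apc were the other named genes. Ptn, a growth factor, was called as well, but 1 cell held 51.2% of its 125 UMIs in the cells without S-phase markers, and its difference was -0.14 when each gene was counted once per cell. Cdc20 and Arl6ip1 were called with DESeq2 too, as were Rrm2 and Hist1h1b.

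**Figure D5:**
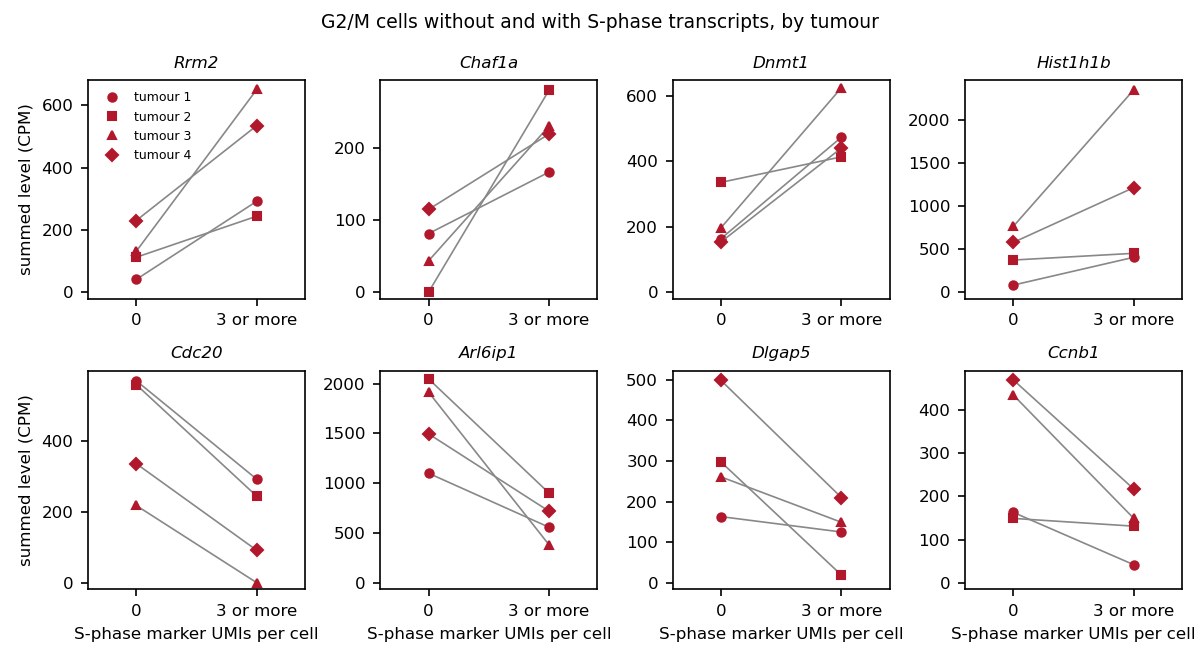
Summed level (vertical axis, CPM) in G2/M cells with 0 and with 3 or more UMIs of the S-phase markers (horizontal axis). Each line joins the values of 1 tumour, marked by its symbol. The upper genes rise and the lower genes fall in each of the 4 tumours, because only genes with the same sign in 4 of 4 tumours were picked.

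The promoters of these genes were searched for the same letters, on small numbers and with no test. The CCAAT box was in 65.4% of the 26 promoters of genes higher in cells with S-phase markers and in 64.7% of the 17 promoters of genes lower in them, against 41.0% of the 1104 tested genes with a promoter. E2F letters (TTCCCGCC, TTTGGCGC or TTTCCCGC on either strand, which can overlap each other) were in 8 of 26 promoters (30.8%) of the genes higher in cells with S-phase markers, in 0 of 17 of the genes lower in them and in 8.4% of the tested genes. In the 250 bases before the start alone the first share was 15.4% (4 of 26) against 7.2%. The CHR letters were in 41.2% of the second group, 19.2% of the first and 12.5% of the tested genes. Promoters with E2F letters in the bases before the start are printed as examples of these matches, with those letters in capitals, for Chaf1a and Prim1.
Chaf1a (chr17:56040316-56040415, plus strand): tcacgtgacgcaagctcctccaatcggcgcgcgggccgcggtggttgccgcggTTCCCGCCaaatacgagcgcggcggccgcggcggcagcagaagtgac
Prim1 (chr10:128015155-128015214, plus strand): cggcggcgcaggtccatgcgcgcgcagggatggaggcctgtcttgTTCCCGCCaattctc
The matches begin 47 and 15 bases before the start. Of the rule's own genes, 7 of the 9 G2/M markers held the CHR letters and 0 of 7 S-phase markers with a promoter did, while 3 of those 7 held E2F letters. This is given as a description, since these genes chose the cells.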

How the data were processed

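Drop-seq libraries of 4 tumours were analysed. The deposited values are whole-number UMI counts per gene and barcode, not normalized by the authors, in 1 table per tumour of 15002 genes. STAR and mm10 are named in the submitters' processing notes, with no version given in the sources used here. Columns of 6 other tables (11203 in all) could not be tied to a labelled sample and were left aside. Filtered cells were classed by the rule in the report, and counts were summed per tumour and class (CPM is relative to all UMIs of that sum). Sums were compared in edgeR 4.0.16 (R 4.3.3; TMM, filterByExpr, quasi-likelihood test, Benjamini-Hochberg adjustment over all genes tested), with the tumour as a block because both sums come from 1 animal. Deviations of the paired sums from their class means correlated at r of 0.48, 0.34, 0.59 and 0.66 for tumours 1 to 4 in the first comparison and at 0.69, 0.59, 0.71 and 0.82 in the second. In the first comparison the G2/M sum of tumour 2 correlated better with the S-phase sum of tumour 1 than with that of its own tumour. Standard errors (SE) were taken from the fold change and its F statistic, and a pooled ratio has an exact counting interval. Doublets were called with Scrublet (scanpy 1.11.5, expected share 6%) and kept, except in 1 alternative. On simulated counts the test recovered 98.6% of 4-fold and 44.4% of 2-fold changes in the first comparison, run on 3224 genes, with 0.98% of calls false. In the second comparison, run on 1397 genes, it recovered 100% and 49.2%. These percentages count only the genes given a change that were then tested. They were 142 of 200 in the first comparison and 116 of 200 in the second. Recovery of genes with few S-phase UMIs was not tested separately.

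Named genes were, per comparison and direction, up to 12 of the largest changes, leaving out predicted and Rik features. They had an adjusted p under 0.05, a mean of at least 100 CPM and the same sign in 4 of 4 tumours. Fewer than 12 genes lower in G2/M than in S-phase cells met these limits, so all of those were kept. Other genes named are members of the lists or are marked as chosen after their values were seen. The members and lists were chosen with earlier results of these data known. Promoters were matched by symbol or unique synonym to RefSeq (GRCm38.p6). The alternatives were other scalings, DESeq2 1.42.0, no filter, no block, each tumour left out, library pairs, thinning, other cell filters and other class limits. Counting every gene once per cell, leaving out cells with markers of other types and the motif window without bases after the start were added after the data were seen.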

Additional observations from a re-analysis of the deposited data

Results flagged for a closer look

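Hmmr, the hyaluronan-mediated motility receptor and a marker of the class rule, stood apart in tumour 2 at 559 CPM of the G2/M cells, against 467 to 478 CPM in the other tumours. The gap was 0.88 of the whole range. The value rests on 73 UMIs in tumour 2, and counts of Hmmr helped to choose the cells, so it is a description. Of 34 sets of 4 values examined it was the only one past the limit, fewer than chance alone gives at about 1 in 20.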

How the results depend on the processing

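The 129 genes higher and 19 lower in G2/M than in S-phase cells kept their sign wherever tested under other scalings, DESeq2, no filter and no replicate block. With each gene counted once per cell 117 of 120 higher and 16 of 17 lower genes kept it, in tumours 1 and 2 alone 100 of 101 higher genes, and without cells with markers of other types 17 of 18 lower genes. Of the genes called with S-phase transcripts, 21 of 23 higher genes kept it when counted once per cell, and 15 of 16 lower genes in tumours 1 and 2 alone. Counts outside 1.5 times the main one follow. Higher genes numbered 73 with DESeq2, 40 with no replicate block, 27 in tumours 1 and 2 alone, 64 in cells thinned to 500 UMIs, 74 in cells with at least 1000 UMIs and 500 genes, 73 against S-phase cells with 0 G2/M marker UMIs and 56 to 129 with each tumour left out. Lower genes numbered 34 with library size alone, 6 with DESeq2, 0 with no replicate block, 3 in tumours 1 and 2 alone, 7 thinned, 8 in the deeper cells, 47 with the mitochondrial limit at 20%, 3 against S-phase cells with 0 marker UMIs, 12 without cells with markers of other types and 4 to 24 with each tumour left out. With and without S-phase transcripts, 28 higher and 23 lower became 2 and 2 with DESeq2, 0 and 0 with no replicate block, 0 and 3 in tumours 1 and 2, 13 and 13 in tumours 3 and 4, 6 and 4 thinned, 8 and 7 in the deeper cells, 44 and 44 at the 20% limit, 6 and 5 with each gene counted once per cell, 2 to 33 and 3 to 32 with each tumour left out; lower alone was 6 with no filter and 15 without cells with markers of other types. Without the filter the median log2 fold change over all genes was 0.26 in the first comparison and 0.25 in the second, against 0.03 and 0.01. The mean G2/M share was 51.5% in the deeper cells and 26.5% when classes were set after thinning. The CHR count of 51 in 100 promoters was 28.0% without the bases after the start. Among the single genes recomputed under the alternatives, these changed sign: Stmn1 to -0.04 in tumours 1 and 2, Sfrp1 to 0.16 with no filter and 0.18 against S-phase cells with 0 marker UMIs, Mycn to -0.03 in tumours 3 and 4 and -0.01 with genes counted once per cell, Ctsb to 0.18 with genes counted once and 0.36 without cells with other markers, and, within G2/M cells, Tubb5 to -0.01 with genes counted once and Hmgb2 to 0.00 in tumours 1 and 2. The cause of these changes was not tested, apart from the fewer cells and samples that some settings leave. The S-phase sums, 11226 UMIs in tumour 2, set the limit for low genes.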

Other observations

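Of the 7 tested genes in the neuron marker list 1 (Neurod1) was higher in G2/M than in S-phase cells, with a median log2 fold change of -0.15, and of 25 in the granule lineage list the same 1. Outside these lists, 3 genes known from growing axons were also called higher; they were chosen after their values were seen and stand for no wider group. Nrcam, an axonal adhesion molecule, was at 176, 153, 81.5 and 83.1 CPM in the G2/M cells of tumours 1 to 4, at 74.3, 89.1, 14.9 and 18.9 CPM in S-phase cells and at 451, 363, 113 and 156 CPM in the remaining cells (edgeR adjusted p = 0.0073 for G2/M against S-phase). Gap43, a growth cone protein, was at 246, 452, 902 and 797 CPM against 223, 445, 374 and 573 CPM, so the difference lay in tumours 3 and 4. Map1b, a microtubule-associated protein of growing axons, was at 1118, 1095, 707 and 731 CPM against 743, 980, 493 and 554 CPM (edgeR adjusted p = 0.0481). For these 3 genes the remaining cells, which include neurons, had the highest level in each tumour. RNA from those cells in G2/M droplets was not tested as a part of these values.

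Myod1, the muscle-determining transcription factor, was detected in 130 of the 787 G2/M cells and was called higher than in S-phase cells. Its level was 91.4, 161, 136 and 173 CPM in G2/M cells, 37.1, 89.1, 105 and 56.7 CPM in S-phase cells and 14.1, 14.2, 36.4 and 56.7 CPM in the remaining cells, which makes it higher in the G2/M cells of 4 of 4 tumours. The largest number of UMIs in a single cell was 5. The call is at the limit (edgeR adjusted p = 0.0476), and it was lost with DESeq2 (adjusted p = 0.75) and without tumour 1, 3 or 4.

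The library pairs differed gene by gene over the whole comparison. Of all 3233 genes, 1126 had both values of tumours 1 and 2 above both of tumours 3 and 4 and 1314 had both below, with median genomic spans of 52.9 and 11.8 kb. The mitotic genes followed the same pattern and are given as examples of it. Of 123 genes in the mitotic, condensin, histone and tubulin lists and the G2/M markers, 48 lay above and 48 below in this sense. The ratio of the pair means was 4.00 for Tubb2a, 3.75 for Ncapd2, 2.83 for Hjurp, 2.60 for Cdc20 and 2.31 for Incenp, and it was 0.10 for Stmn1, 0.07 for Hmgn2 and 0.24 for Hmgb2. The median genomic span of the genes above was 41.3 kb and that of the genes below 7.75 kb, although Tubb2a and Cdc20, at 3.73 and 4.44 kb, are short genes among those above. Across the 110 genes with a span in RefSeq, the log2 ratio and the log10 span had a Pearson r of 0.61 and a Spearman rho of 0.63. Over all 3033 such genes of the comparison they were 0.53 and 0.55. These are descriptions across genes of the same libraries, which also differed in mitochondrial and ribosomal-protein share.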
